A study of Mus musculus with 6 samples.

Results

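The genes described here are 50 genes of the endoplasmic reticulum (ER) machinery that folds, modifies, checks and exports secreted proteins, followed in single mouse B cells as the immunoglobulin share of their RNA rose. The members were the 50 rows of the gene tables, of all features counted, whose symbol stood on a list of chaperones (12 genes), disulfide enzymes (7), targeting and translocon genes (10), signal peptidase subunits (4), oligosaccharyltransferase subunits (5), genes of ER-associated degradation (6), stress transcription factors (3) and transport receptors (3). Each member was found exactly once, and all 50 passed the low count filter of the tests along the immunoglobulin share. The 6 libraries were 10x Genomics 3′ gene expression libraries of splenic germinal center (GC) B cells, sorted by the study from mice immunized with sheep red blood cells. All mice carried Cγ1-Cre, a recombinase driven from an immunoglobulin heavy chain locus that B cells switch on as they join the GC reaction. The 3 control libraries were *Smc3* wt/wt, and the other 3 were *Smc3* wt/-, which lack a copy of the gene of a cohesin core subunit in the cells where Cre has acted. The labels give cell type and genotype, not age or strain, nor was the mouse behind each library, so the p-values below measure the spread between libraries.

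An antibody secreting cell threads its immunoglobulin chains through the Sec61 channel into the ER, where the signal peptide is cut off, sugar chains are attached, chaperones hold the unfolded domains and disulfide enzymes link the cysteines. Chains that do not fold are pulled back out and degraded, and folded antibody leaves in vesicles. The unfolded protein response acts through XBP1, ATF6 and ATF4, of which XBP1 is known to drive the secretory program of plasma cells.

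The libraries held between 5223325 and 35354257 unique molecular identifiers (UMIs), and 20847 cells were retained. Immunoglobulin genes took between 2.37% and 3.90% of the UMIs of 5 libraries and 51.9% of those of *Smc3* wt/- replicate 2, which thus stood apart. In this library the T cell-like and myeloid-like cells also carried a median of 1.24% and 1.18% immunoglobulin UMIs, against 0.0413% to 0.146% in the other libraries. Between 4 and 43 cell barcodes were shared by pairs of libraries. *Smc3* itself was at 1.51 to 1.61 UMIs per 10000 in the *Smc3* wt/wt cells under 5% immunoglobulin and at 1.54, 0.907 and 1.67 in *Smc3* wt/- replicates 1, 2 and 3, so the level of these 3′ counts did not separate the genotypes. Cells were grouped by clusters made without the 50 members and without immunoglobulin genes, and were also cut into 4 steps by the immunoglobulin share of their UMIs (under 5%, 5 to 20%, 20 to 50%, and 50% or more). Against the label of GC B cells, *Smc3* wt/- replicate 2 held 159 CB-like (centroblast), 90 CC-like (centrocyte), 69 recycling-like and 54 S-phase GC B-like cells of 3571, beside 1450 PC-like (plasma cell), 274 PB-like (plasmablast) and 589 naive or memory B-like cells. Over all libraries, 529 cells were T cell-like, and 236, 70 and 61 were in 3 myeloid-like clusters. Outside the B lineage lay 2 unnamed clusters, of 314 cells led by *Cd209a* and 61 led by *Cst3*. Of these cells, 293 and 56 came from *Smc3* wt/- replicate 2. A cluster of 3512 B-lineage cells was led by haemoglobin genes in the pooled counts. In this cluster the erythroid markers (7 genes) summed to 1050 UMIs per 10000 in the 104 cells of *Smc3* wt/- replicate 2. They summed to 33.9 in *Smc3* wt/- replicate 3 and to 1.19 to 2.47 in the other libraries, so the name does not describe most of its cells.

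The promoters of the members were searched first for the DNA elements that the unfolded protein response is known to act through, which a part of the members carried. RefSeq windows (GRCm38.p6, 250 bases before to 50 bases after the start site) matched 39 of the 50 members. The ER stress response element (ERSE, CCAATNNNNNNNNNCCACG, searched on both strands) was in the windows of 9 of these 39 members, or 23.1%, and in 39 of all 32851 windows, or 0.119%. The related ERSE-II (ATTGG, any base, CCACG, on both strands) was in 3 members and in 0.0365% of all windows, and the unfolded protein response element (UPRE, TGACGTGG, on both strands) was in 2 members, *Txndc5* and *Txndc11*, and in 0.676% of all windows. The element of the ATF4 and CHOP factors (AARE, TGATGNAAT, on both strands) was in none of the 39 members and in 0.965% of all windows. CCAAT is the complement of ATTGG, so ERSE and ERSE-II share both of their ends, but no base of a member belonged to 2 matches. The 9 ERSE members had roles in folding (*Hspa5*, *Hsp90b1*, *Calr*, *Canx*, *Creld2*, *Dnajc3*), disulfide bonds (*Pdia6*, *Ero1lb*) and degradation (*Syvn1*). A match is a description of letters and not a bound site.

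The matches are printed on the strand of each gene with 10 flanking bases on either side. Capitals mark the element, which reads CGTGG to ATTGG where it lies on the opposite strand. They are shown because the ERSE and ERSE-II letters were rare among all promoters.
Calr ERSE: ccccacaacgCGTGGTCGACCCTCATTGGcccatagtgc
Canx ERSE: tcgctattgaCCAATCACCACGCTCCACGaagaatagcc
Creld2 ERSE: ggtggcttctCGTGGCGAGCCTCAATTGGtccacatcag
Dnajc3 ERSE: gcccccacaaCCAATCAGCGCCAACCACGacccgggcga
Ero1lb ERSE: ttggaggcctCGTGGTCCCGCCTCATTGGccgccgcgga
Hsp90b1 ERSE: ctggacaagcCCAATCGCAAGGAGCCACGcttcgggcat
Hsp90b1 second match ERSE: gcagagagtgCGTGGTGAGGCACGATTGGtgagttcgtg
Hspa5 ERSE: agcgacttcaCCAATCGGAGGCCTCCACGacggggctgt
Pdia6 ERSE: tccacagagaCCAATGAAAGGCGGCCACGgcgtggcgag
Syvn1 ERSE: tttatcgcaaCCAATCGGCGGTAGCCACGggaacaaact
Dnajb11 ERSE-II: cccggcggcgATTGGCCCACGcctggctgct
Herpud1 ERSE-II: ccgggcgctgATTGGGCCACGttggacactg
Krtcap2 ERSE-II: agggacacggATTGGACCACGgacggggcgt
Txndc5 UPRE: gcctcgccgcTGACGTGGcgctagccgc
Txndc11 UPRE: gaagtgtggcTGACGTGGagagtccggg

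The start sites lay close by. The first base of the match was 65 bases before the start site in *Hspa5* (chr2:34772015-34772053 with its flanks), 44 before it in *Syvn1* (chr19:6046522-6046560), 98 in *Pdia6* (chr12:17266481-17266519), 105 in *Dnajc3* (chr14:118937817-118937855), 126 in *Creld2* (chr15:88819510-88819548), 145 in *Canx* (chr11:50325790-50325828), 162 in *Calr* (chr8:84847065-84847103) and 201 in *Ero1lb* (chr13:12565672-12565710). *Hsp90b1*, the ER member of the Hsp90 family, had 2 matches in opposite orientations, 212 and 107 bases before its start site (chr10:86705628-86705666 and chr10:86705523-86705561). The ERSE-II matches lay at 52 bases before the start site in *Herpud1* (chr8:94386367-94386397), and 7 and 17 bases after it in *Dnajb11* (chr16:22857842-22857872) and *Krtcap2* (chr3:89246480-89246510), and that of the UPRE in *Txndc5* 138 bases before it (chr13:38528035-38528062), and that in *Txndc11* 102 bases before it (chr16:11134617-11134644). The whole 300-base window of *Hspa5*, which encodes the ER Hsp70 chaperone BiP, is shown as the textbook promoter of this response (chr2:34771840-34772139, plus strand).
Hspa5 promoter: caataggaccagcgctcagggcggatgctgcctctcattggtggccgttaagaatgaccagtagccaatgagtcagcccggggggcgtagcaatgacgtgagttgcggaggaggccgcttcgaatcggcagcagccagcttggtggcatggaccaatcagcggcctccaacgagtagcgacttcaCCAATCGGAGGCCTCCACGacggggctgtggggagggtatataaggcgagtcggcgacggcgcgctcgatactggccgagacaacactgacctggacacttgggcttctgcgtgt

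The ER genes were higher in each step of the immunoglobulin share above 5% than below it. As a percent of all UMIs that were not immunoglobulin, the 50 genes together made up 0.832%, 0.781% and 0.787% in *Smc3* wt/wt replicates 1 to 3 and 0.885%, 0.815% and 0.801% in *Smc3* wt/- replicates 1 to 3 in cells under 5% immunoglobulin. In cells of 5 to 20% the shares were 5.37%, 4.55% and 4.25%, and 4.81%, 3.49% and 5.26%. The lowest of these libraries thus stood far above the highest of those under 5%. The step was mixed in cell state. PB-like cells made up 54.8% of it and were at 4.52% to 5.85% for the 50 genes, whereas naive or memory B-like cells made up 28.4% of it and were at 0.721%, 1.52%, 1.14% and 0.599% in *Smc3* wt/wt replicate 2 and *Smc3* wt/- replicates 1, 2 and 3, the libraries with at least 10 of them. *Smc3* wt/- replicate 2, the lowest at 3.49%, drew 54 of its 117 cells of this step from the latter. In cells of 20 to 50%, where *Smc3* wt/wt replicate 1 had only 2 cells and was left out, the shares were 7.32%, 6.94%, 8.78%, 6.83% and 7.85%, above all libraries of the step before. The means were 0.817% ± 0.0383 (SD, n = 6), 4.62% ± 0.695 (n = 6) and 7.54% ± 0.797 (n = 5).

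In cells of 50% or more the shares were lower again, at 4.43%, 5.10% and 4.21% in the *Smc3* wt/wt libraries and 4.26%, 4.49% and 7.004% in *Smc3* wt/- replicates 1 to 3, with a mean of 4.92% ± 1.07 (n = 6). The total that these shares are taken of had changed as well. *Jchain*, which encodes the joining chain of polymeric antibody and was not among the immunoglobulin genes left out, took 0.145% to 0.185% of the UMIs that were not immunoglobulin under 5%, 3.20% to 7.58% at 20 to 50%, and 23.1% to 37.9% at 50% or more. With *Jchain* also left out of the total the ER genes were at 7.91% ± 0.793 (n = 5) at 20 to 50% and at 6.91% ± 1.21 (n = 6) at 50% or more. In 4 of the 5 libraries with both steps the share still fell, and in *Smc3* wt/- replicate 3 it rose from 8.19% to 9.11%. The fall of the mean was smaller, and the libraries of the steps overlapped with either total. The median number of UMIs that were not immunoglobulin was 2772 to 5316 per cell in the libraries of the step of 50% or more. The UMIs of the 50 genes averaged 47.1 per cell under 5%, 465 at 5 to 20%, 548 at 20 to 50% and 207 at 50% or more. More transcripts per cell and more capture per cell cannot be told apart in these counts.

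**Figure D1:**
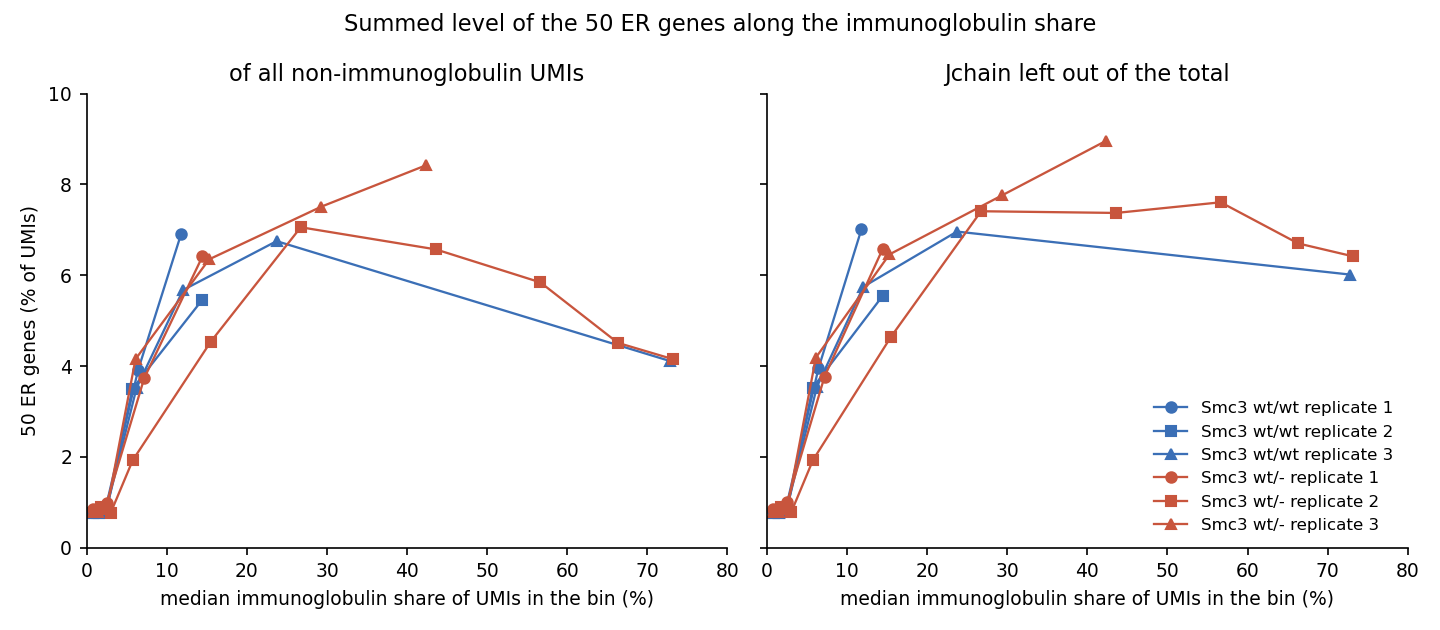
Each point is the summed level of the 50 ER genes in the cells of a library within a narrow bin of immunoglobulin share (y axis, percent of UMIs that are not immunoglobulin; x axis, median immunoglobulin percent of the bin; bins of at least 10 cells). On the left *Jchain* is part of the total, and the 2 libraries with at least 10 cells in the bin of 70 to 80% end at 4.11% and 4.15%. On the right it is left out, and they end at 6.01% and 6.41%.

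The breadth of the group changed with its sum. With each cell thinned to 1000 UMIs that were not immunoglobulin, a cell under 5% had a UMI of 6.17 of the 50 genes (mean over libraries of the median cell, SD 0.408, n = 6), a cell of 5 to 20% of 17.7 ± 4.18 (n = 6), a cell of 20 to 50% of 25.4 ± 1.08 (n = 5) and a cell of 50% or more of 21.3 ± 2.09 (n = 6). Without thinning the numbers were 18.3, 38.3, 41.9 and 36.1. Thinning left out between 0 and 34 cells of a library and step that were shallower than this.

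Gene by gene, UMIs were summed per library and step and tested with edgeR's quasi-likelihood test with the library as a block, against the cells under 5%, with Benjamini-Hochberg adjustment over all 6884 genes tested and a threshold of 0.05. At 5 to 20% immunoglobulin, 48 of the 50 ER genes were higher and none was lower, where 21.9% of all genes tested were higher. With step limits of 2%, 10% and 40% the count for the step above the lowest, then 2 to 10%, was 31 of 50, where 1557 of 8363 genes were higher. The median log2 fold change was 2.48 for the ER genes and -0.04 for all genes. At 20 to 50%, 48 were higher and none lower, against 20.2% of all genes that were higher, with medians of 3.29 and -0.15. At 50% or more, 49 were higher and none lower, against 24.1% of all genes, with medians of 2.73 and -0.18. The fold changes are on the TMM scale. For some members the plain ratio of mean shares of non-immunoglobulin UMIs was well below the fitted change at 50% or more. It was 1.05 for *Syvn1*, 1.23 for *Canx*, 1.30 for *Srp14*, 1.49 for *Atf4* and 2.19 for *Ero1lb*. A call was not made for *Syvn1* and *Ddit3* at 5 to 20%, *Srp54a* and *Ddit3* at 20 to 50%, and *Ddit3* at 50% or more. Scaling with RLE size factors in place of TMM moved the median of all genes at 5 to 20% from -0.04 to -0.18 and the split of all calls from 1509 higher and 1479 lower to 1251 and 2107, and at 50% or more moved the median from -0.18 to -0.33. The counts of ER genes were 48, 48 and 49 under both. The markers of T cells (12 genes) summed to 0.708 to 1.14 UMIs per 10000 under 5% and 1.53 to 3.77 at 50% or more, those of myeloid cells (17 genes) to 0.137 to 2.46 and 0 to 3.28, and their part in the result was not tested. Levels below are UMIs per 10000 UMIs that are not immunoglobulin, and are compared within a gene, not between genes.

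All 12 chaperone genes were higher in each of the 3 steps. *Hsp90b1*, the ER Hsp90 that folds immunoglobulin chains and Toll-like receptors, was at 1.98, 1.72 and 1.89 UMIs per 10000 under 5% in the *Smc3* wt/wt libraries and 2.10, 4.08 and 1.87 in *Smc3* wt/-. It reached 58.8, 52.4 and 45.1, and 50.9, 45.1 and 69.7, in cells of 5 to 20%, and 87.1, 80.5, 128, 90.1 and 108 in the 5 libraries at 20 to 50%. No library overlapped between these 3 steps. At 50% or more it was at 41.0, 47.5, 33.3, 32.6 and 35.1 in 5 libraries and at 107 in *Smc3* wt/- replicate 3, which alone stood within the range of the step before. Its log2 fold changes over the cells under 5% were 4.68 ± 0.218 (SE), 5.65 ± 0.232 and 4.83 ± 0.222. *Mzb1*, a B-lineage co-chaperone of *Hsp90b1*, started from 8.70 to 11.6 UMIs per 10000 under 5%, rose to 44.6 to 67.1 at 5 to 20% and to 127, 117, 122, 87.8 and 134 at 20 to 50%, and stood at 38.9 to 76.3 at 50% or more. *Hspa5* went from 3.43 to 4.58 under 5% to 27.7 to 64.8 at 20 to 50%, with log2 fold changes of 2.72, 3.56 and 3.01. In the last step the plain ratio of the mean *Hspa5* levels was 6.11, a plain share of the total that TMM scaling does not enter. *Canx*, the membrane lectin that holds glycoproteins, had the smallest change of the role at 50% or more (log2 fold change 0.76 ± 0.153, adjusted p = 6.83e-05): it was at 1.41 to 1.68 under 5%, 3.18 to 4.53 at 20 to 50% and 1.22 to 2.54 at 50% or more, where the libraries overlapped with those under 5%. *Dnajb9*, a J-domain partner of BiP, went from 0.143 to 0.272 under 5% to 1.91 to 4.64 at 50% or more, and *Creld2*, a stress-induced disulfide isomerase-like factor, from 0.438 to 0.709 to 4.85 to 15.4. *Manf* overlaps *Rbm15b* on the same strand in the annotation, so reads of the shared part may not have been counted.

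All 7 disulfide enzyme genes were higher in each step, but on different courses. *Pdia4*, a protein disulfide isomerase, had the largest change. It was at 0.478, 0.153 and 0.150 UMIs per 10000 in the *Smc3* wt/wt libraries and 0.307, 0.643 and 0.178 in *Smc3* wt/- under 5%, at 12.1, 8.96, 20.04, 8.36 and 12.3 at 20 to 50%, and at 12.6, 7.81, 5.36, 9.59, 4.84 and 14.7 at 50% or more (log2 fold change 5.35 ± 0.285 over under 5%). *Txndc5*, an isomerase abundant in plasma cells, had a higher median at each step, going from 0.969 to 1.48 under 5% to 5.33 to 7.60, 12.2 to 20.03, and 13.02 to 29.6. Its log2 fold changes were 2.50, 3.74 and 4.67 ± 0.181. *Pdia6* and *Pdia3*, the latter a partner of calnexin and calreticulin, peaked at 20 to 50%. *Pdia6* went from 2.25 to 3.69 under 5% to 19.6 to 41.2 at 20 to 50% and 8.25 to 17.5 at 50% or more, and *Pdia3* from 2.81 to 3.73 to 10.9 to 22.0 and then 3.87 to 9.42. The oxidase gene *Ero1lb*, whose product recharges the isomerases, moved least at first. It was at 0.327 to 0.376 under 5%, 0.417 to 0.562 at 5 to 20%, 0.679 to 1.49 at 20 to 50% and 0.343 to 1.12 at 50% or more, with log2 fold changes of 0.64, 1.69 and 2.03 ± 0.195 (adjusted p = 7.92e-11).

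Of the 10 targeting and translocon genes, 10 were higher at 5 to 20% and at 50% or more, and 9 at 20 to 50%. The 4 subunits of the translocon-associated protein complex, which assists the Sec61 channel, did not move alike between the upper steps, where *Ssr4* was higher and *Ssr1*, *Ssr2* and *Ssr3* were lower. *Ssr4* (chrX:73787028-73790830, GRCm38) was at 1.01 to 2.17 UMIs per 10000 under 5% and at 4.75 to 7.79 at 5 to 20%. It was then at 19.4, 18.9, 12.6, 20.4 and 20.5 at 20 to 50%, and at 31.2, 33.6, 28.1, 25.0, 33.6 and 36.2 at 50% or more, so that no library overlapped between any of the steps. Its log2 fold changes were 2.39, 3.94 and 5.01 ± 0.142. *Ssr2* (chr3:88575876-88588419) reached its level at once and lost it again. It was at 1.04 to 1.34 under 5%, at 15.1, 13.7, 12.5, 12.9, 7.45 and 14.7 at 5 to 20%, at 15.6, 17.2, 15.2, 12.3 and 14.6 at 20 to 50%, and at 4.29, 5.01, 3.32, 4.80, 3.17 and 4.93 at 50% or more. The highest library of the last step lay below the lowest of both middle steps. *Sec61g*, a small subunit of the channel, went from 6.93 to 8.83 under 5% to 25.1 to 29.7 at 20 to 50% and 11.7 to 18.7 at 50% or more. *Srp14*, of the signal recognition particle that brings ribosomes to the ER, had the smallest change of the role: it was at 1.99 to 2.42 under 5% and 1.91 to 4.80 at 50% or more, where the libraries overlapped (log2 fold change 0.85 ± 0.159, adjusted p = 2.55e-05). *Srp54a* at 20 to 50% missed the threshold (log2 fold change 0.97, adjusted p = 0.0527). It has near-identical copies in the mouse genome, and its counts are uncertain for that reason.

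The 4 signal peptidase genes were higher in each step and stayed high. *Sec11c*, a catalytic subunit, was at 2.12 to 3.25 UMIs per 10000 under 5%, at 16.1 to 17.9 at 5 to 20%, at 30.03, 28.7, 23.4, 42.5 and 30.8 at 20 to 50%, and at 28.4, 32.8, 28.9, 22.6, 36.2 and 37.1 at 50% or more. Its log2 fold changes were 2.94, 3.86 and 4.15 ± 0.138. *Spcs2*, a noncatalytic subunit, had the smallest change of the 4 at 50% or more and went from 2.90 to 4.68 under 5% to 17.1 to 24.8 (log2 fold change 2.99 ± 0.125).

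The 5 oligosaccharyltransferase genes, whose products attach N-linked sugar chains, were also higher in each step. *Krtcap2* rose to 10.5 to 19.9 UMIs per 10000 at 20 to 50% from 1.38 to 2.41 under 5% and was at 9.59 to 17.3 at 50% or more (log2 fold changes 3.22 and 3.24). *Ostc* went from 1.74 to 2.36 to 8.04 to 12.0 and back to 2.64 to 4.64 (log2 fold changes 2.52 and 1.37). *Rpn2*, a ribophorin, was at 1.21 to 1.66 under 5%, 7.55 to 10.9 at 20 to 50% and 3.49 to 6.85 at 50% or more. *Ddost* was at 0.844 to 1.43, 8.62 to 15.4 and 3.77 to 7.16 in these steps.

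Of the 6 genes of ER-associated degradation, 5 were higher at 5 to 20% and 6 in both later steps. *Edem2* (chr2:155701677-155729475), a factor that marks misfolded glycoproteins by trimming their mannose, stood higher at each step, without overlap of any library. It was at 0.301 to 0.483 UMIs per 10000 under 5% and 2.13 to 4.21 at 5 to 20%, then at 5.46, 4.62, 5.32, 7.66 and 7.01 at 20 to 50%, and at 11.7, 12.8, 12.2, 11.3, 14.1 and 11.1 at 50% or more, with a log2 fold change of 5.53 ± 0.185 in the last step, the largest of the 50 genes. *Edem1* went from 0.700 to 1.34 under 5% to 13.8 to 26.0 at 20 to 50% and 15.3 to 23.5 at 50% or more. *Sel1l*, the adaptor of the degradation channel, rose from 0.253 to 0.323 to 2.37 to 3.46 and 2.15 to 6.21. *Syvn1*, the ubiquitin ligase that *Sel1l* serves, had the smallest change of the role: it was at 0.415 to 0.969 under 5%, 0.607 to 0.888 at 5 to 20% (log2 fold change 0.15 ± 0.149, adjusted p = 0.424), 0.982 to 1.82 at 20 to 50% and 0.343 to 1.19 at 50% or more (0.79 ± 0.200, adjusted p = 0.0011). The libraries of *Syvn1* overlapped between the first and the last step. Its plain mean levels there were 0.728 and 0.763, a ratio of 1.05, with 4 of 6 libraries higher and 2 lower. The fitted change of 0.79 is on the TMM scale.

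The 3 stress transcription factor genes were the least changed role. *Atf6*, the membrane-bound factor that is cut free under stress, rose from 0.0805 to 0.222 UMIs per 10000 under 5% to 0.496 to 0.945 at 20 to 50% and 0.299 to 1.03 at 50% or more (log2 fold changes 1.65, 2.52 and 2.74). *Atf4*, the effector of the PERK branch, was at 0.510 to 0.912 under 5% and 0.477 to 2.06 at 50% or more (log2 fold changes 0.58, 0.81 and 1.14 ± 0.201, adjusted p = 1e-05 in the last), with overlapping libraries. *Ddit3*, which encodes the death-associated factor CHOP, passed the threshold in no step, with log2 fold changes of 0.03 ± 0.323, 0.90 ± 0.405 and 0.88 ± 0.393 and adjusted p of 0.947, 0.0688 and 0.0568. Outside *Smc3* wt/- replicate 2 its level at 50% or more rested on 0 to 3 UMIs a library, and the 0 of 29184 UMIs in *Smc3* wt/- replicate 1 allows up to 1.03 per 10000, a limit that covers counting error only. The gene also overlaps a second annotated gene, AC144852.1, on the same strand.

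The 3 transport receptor genes were higher in each step. For *Kdelr2* the libraries of 50% or more overlapped with those under 5%, at means of 1.07 and 0.597 UMIs per 10000. *Lman1*, a cargo receptor for glycoproteins leaving the ER, rose from 0.398 to 0.498 UMIs per 10000 to 6.93 to 10.4 at 20 to 50% and was at 4.25 to 7.78 at 50% or more (log2 fold changes 3.78, 4.47 and 4.23). *Kdelr1* and *Kdelr2*, which return escaped ER proteins, parted at the top. *Kdelr1* was at 1.96 to 3.23 at 20 to 50% and 1.19 to 2.98 at 50% or more, while *Kdelr2* was at 4.55, 4.10, 4.08, 3.23 and 4.17 and then at 0.954, 1.22, 0.935, 0.685, 1.29 and 1.35.

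**Figure D2:**
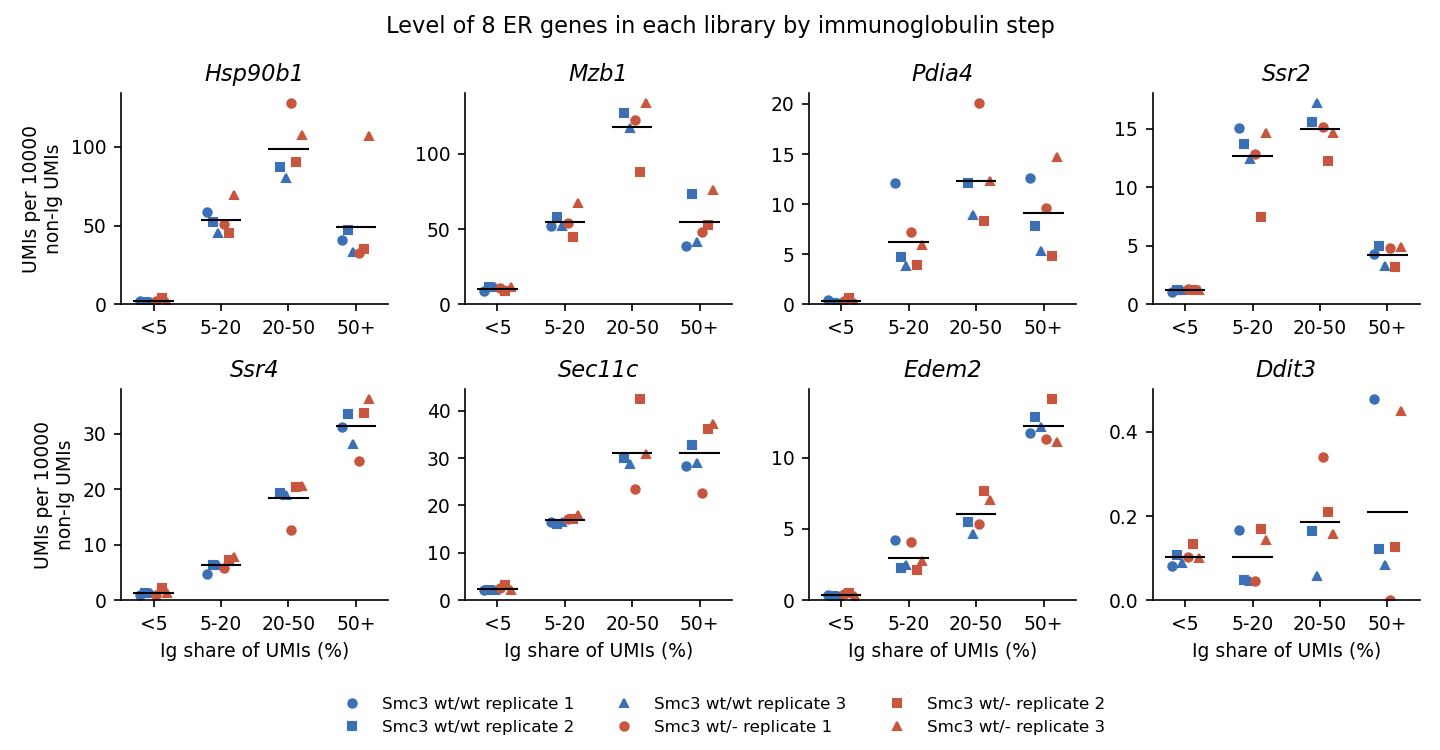
Level of 8 ER genes (UMIs per 10000 UMIs that are not immunoglobulin) in each library by step of immunoglobulin share; blue is *Smc3* wt/wt, red is *Smc3* wt/-, symbols are replicates and the bar is the mean over libraries. *Ssr4* and *Edem2* are highest at 50% or more, *Hsp90b1*, *Mzb1* and *Ssr2* at 20 to 50%, and *Ddit3* stays at or below 0.477 in all libraries.

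The same fit was asked directly how cells of 50% or more differed from cells of 20 to 50%, a contrast chosen after the data had been seen. Of the 50 ER genes, 5 were higher, where 4.87% of all genes were, and 21 were lower, where 9.47% of all genes were. The median log2 fold change was -0.36 for the ER genes and -0.01 for all genes. The 5 that were higher were *Edem2* (log2 fold change 1.29 ± 0.182, adjusted p = 2.26e-06), *Ssr4* (1.07 ± 0.136), *Sel1l* (0.98 ± 0.183), *Txndc5* (0.93 ± 0.174) and *Herpud1* (0.54 ± 0.149, adjusted p = 0.0102), and each was higher in 5 of 5 libraries. *Herpud1* encodes a membrane protein of the degradation channel, so 3 of the 5 belong to ER-associated degradation and the other two are a translocon subunit and an isomerase. The levels of *Herpud1* were 5.26 to 8.04 UMIs per 10000 at 20 to 50% and 6.68 to 9.59 at 50% or more.

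The 21 that were lower were 8 of the 12 chaperones, 5 of the 10 targeting and translocon genes, 4 of the 5 oligosaccharyltransferase genes, 3 of the 7 disulfide enzymes and 1 of the 3 transport receptors. The furthest down were *Ssr2* (-1.57 ± 0.162, adjusted p = 6.61e-09), *Kdelr2* (-1.27 ± 0.218), *Calr*, the soluble lectin chaperone (-1.26 ± 0.170), *Pdia3* (-1.18 ± 0.160), *Ostc* (-1.15 ± 0.169) and *Pdia6* (-1.14 ± 0.163). *Calr* was at 18.02 to 25.7 UMIs per 10000 at 20 to 50% and at 3.58 to 12.4 at 50% or more. *Hspa5*, at -0.55 ± 0.189 (adjusted p = 0.0454), was near the threshold and lower in 4 of 5 libraries. None of the 4 signal peptidase genes was called, with log2 fold changes between 0.12 and 0.29, nor did the 3 stress factors pass the test. A missed threshold does not show that the steps were alike. The plain ratios of mean levels were 1.01 for *Sec11c*, 0.94 for *Spcs1*, 0.90 for *Spcs2* and 0.94 for *Spcs3*. For the *Spcs* genes the sign thus depended on the scaling.

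This contrast depended on where the steps were cut. With limits of 2%, 10% and 40% in place of 5%, 20% and 50%, 14 ER genes were higher and 12 lower between the upper steps, where 1026 and 1552 of 8363 genes were, and *Hspa5* (log2 fold change 0.32), *Hsp90b1* (0.10) and *Mzb1* (0.14) changed sign. Without *Smc3* wt/- replicate 2, which held 1510 of the cells of 50% or more against 11 to 21 in each other library, 6 members were higher and 19 lower of 48 tested, where 197 and 490 of 4247 genes were. The steps also differed in cell state: cells of 20 to 50% were 83.6% PB-like (plasmablast-like) and cells of 50% or more were 94.5% PC-like (plasma cell-like), and S-phase markers fell from 11.1 to 28.3 to 1.94 to 5.86 UMIs per 10000. Outside *Smc3* wt/- replicate 2, immunoglobulin share and cell state cannot be told apart between these 2 steps.

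**Figure D3:**
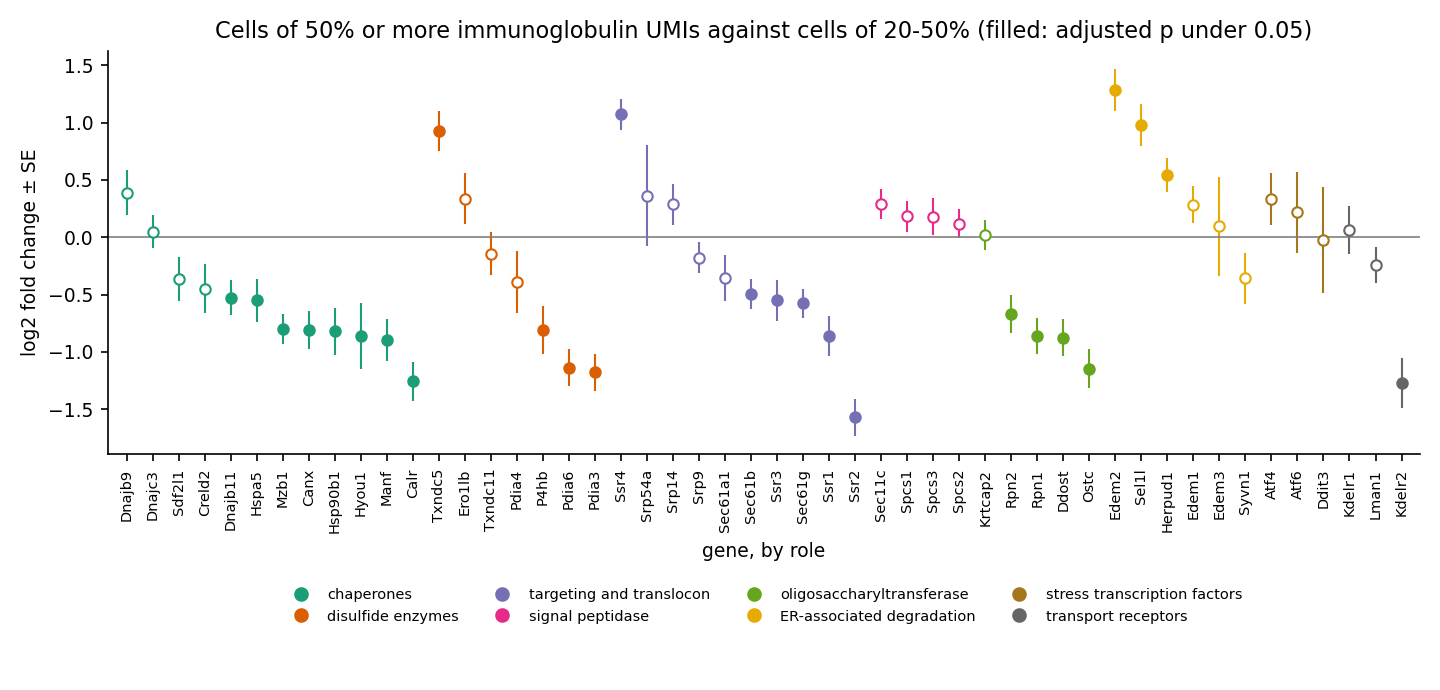
Log2 fold change ± SE of each of the 50 ER genes in cells of 50% or more immunoglobulin against cells of 20 to 50%, grouped by role; filled points passed an adjusted p of 0.05 in edgeR's quasi-likelihood test. The chaperones and oligosaccharyltransferase genes lie mostly below 0, the 4 signal peptidase genes between 0.12 and 0.29, and *Edem2*, *Ssr4*, *Sel1l* and *Txndc5* near or above 0.93.

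The letters in the promoters sorted the members only loosely. The 9 members with an ERSE match had median log2 fold changes of 2.72, 3.56 and 2.51 over the 3 steps, and the 30 members with a window and no ERSE match 2.26, 3.10 and 2.78. Between the upper steps the medians were -0.55 and -0.00, with 5 of the 9 and 10 of the 30 lower and 0 and 5 higher. *Syvn1*, with an ERSE 44 bases before its start site, was among the least changed members, and *Ssr4* and *Edem2*, with no match in their windows, among the most changed. The other way, *Hsp90b1*, with 2 ERSE matches, had the largest change at 5 to 20%. It was at 4.68, against at most 4.46 in members without an ERSE match.

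A further list of 49 genes of the same pathway was counted for comparison, of which 48 were tested in the steps. It holds the sensors and *Xbp1*, other degradation and glycosylation genes, and the coat proteins of vesicles between the ER and the Golgi. Of these, 44, 44 and 42 were higher in the 3 steps and 1, 0 and 2 lower, and between the upper steps 4 were higher and 8 lower. *Xbp1*, the master factor of the secretory program, had log2 fold changes of 3.57, 4.46 and 5.60 and was also higher between the upper steps (1.14, adjusted p = 3.88e-06). *Ppp1r15a*, which encodes the phosphatase subunit that ends PERK signalling, was the gene that was lower at 5 to 20% (-0.63). *Tusc3* (-1.50) and *Stt3b* (-0.70), of the oligosaccharyltransferase form that works after translocation, were the 2 that were lower at 50% or more, whereas *Stt3a*, of the form that works during it, was higher (2.29). These 4 were named after their values had been seen.

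Across cell states the ER genes divided the cells into 2 levels. The states are clusters of the same cells, so their differences are described and not tested. In 6 B-lineage states the 50 genes made up, on average over 6 libraries, 0.768% ± 0.106 (naive or memory B-like), 0.854% ± 0.0734 (CC-like, centrocyte), 0.907% ± 0.122 (recycling-like), 0.821% ± 0.0338 (S-phase GC B-like), 0.810% ± 0.0902 (CB-like, centroblast) and 0.889% ± 0.186 (the cells led by haemoglobin genes) of the UMIs that were not immunoglobulin. The ranges over libraries overlapped between these neighbours. T cell-like cells were at 0.703% ± 0.0664 and myeloid-like cells at 0.745% ± 0.0734, in the same range. PB-like cells were at 5.82%, 5.07% and 4.48% in the *Smc3* wt/wt libraries and 5.53%, 6.89% and 5.88% in *Smc3* wt/- replicates 1 to 3, and PC-like cells at 4.36%, 4.86% and 4.13%, and 4.54%, 4.35% and 6.89%. The means of 5.61% ± 0.814 and 4.86% ± 1.03 overlapped, and their order turned with *Jchain* left out of the total (5.78% ± 0.992 and 6.71% ± 1.15).

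**Figure D4:**
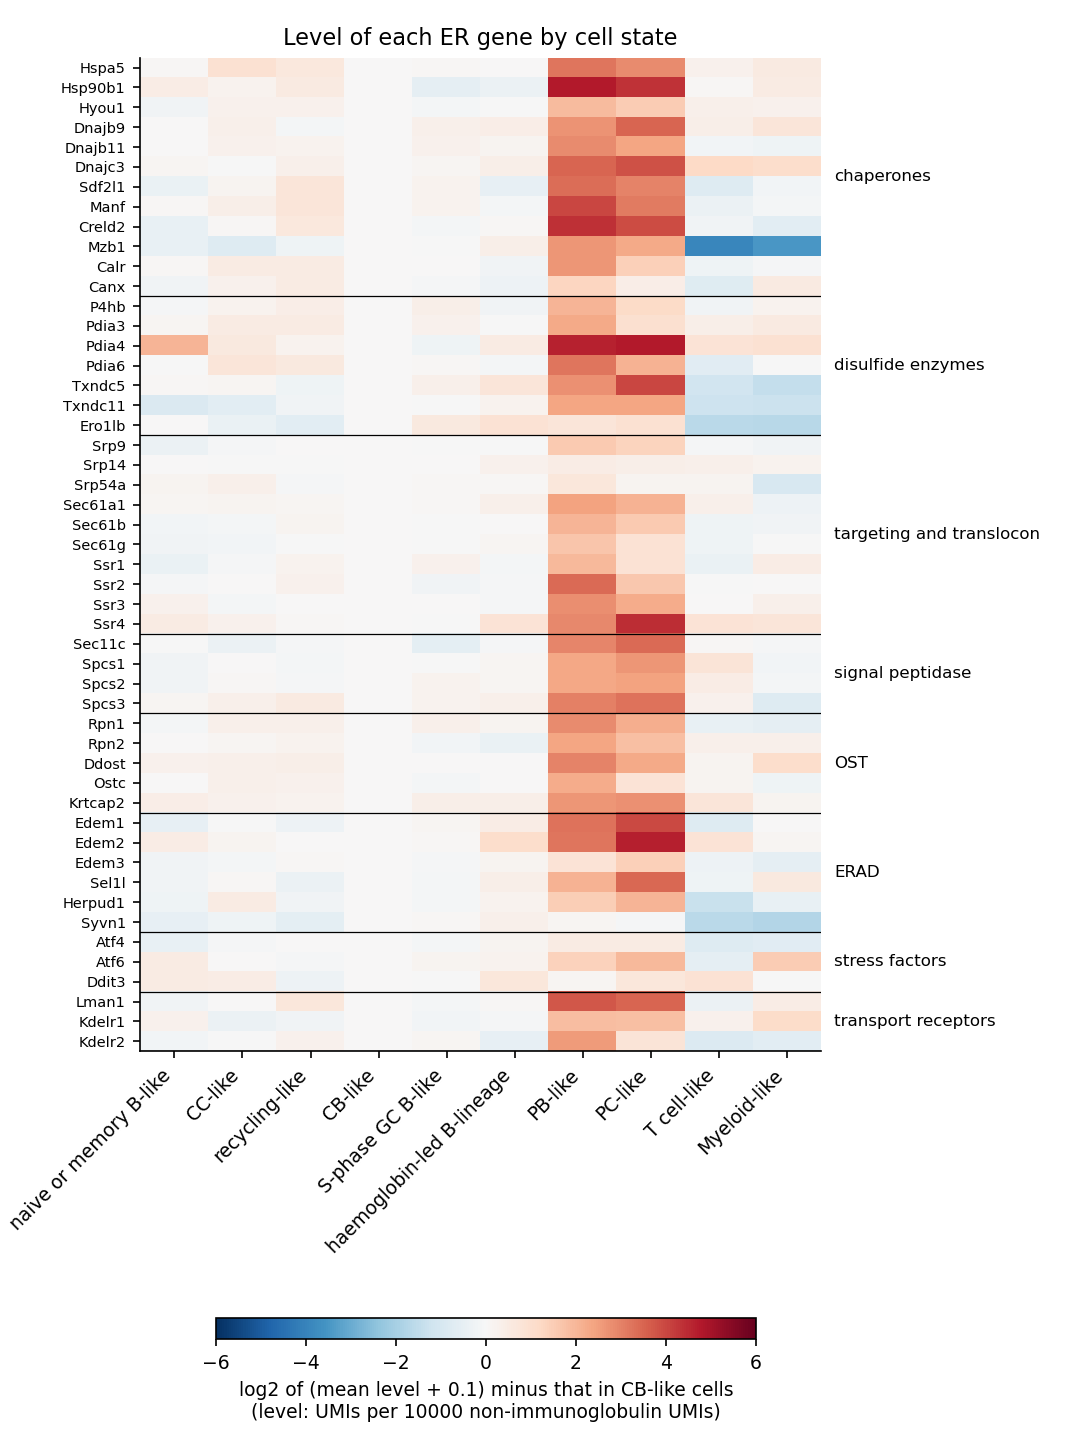
Each row is an ER gene and each column a cell state; colour is log2 of the mean level over libraries (UMIs per 10000 UMIs that are not immunoglobulin, plus 0.1) minus that in CB-like cells. PB-like and PC-like cells are red in nearly all rows, *Syvn1*, *Ddit3*, *Atf4* and *Srp14* are pale, and *Mzb1* is blue in T cell-like and myeloid-like cells.

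Within the GC some members differed between states, in both directions. The sum of the members did not separate CC-like from CB-like cells, at 0.854% ± 0.0734 and 0.810% ± 0.0902 with overlapping libraries. The genes below are examples, and *Hspa5* and *Herpud1* among them were named after their values had been seen. No count over all members or all genes is given, so they do not show a pattern of the members as a whole. *Hspa5* was at 7.59, 5.63 and 5.57 UMIs per 10000 in CC-like cells of *Smc3* wt/wt and 7.37, 5.79 and 5.55 in those of *Smc3* wt/-, against 3.17, 2.80 and 2.69, and 3.49, 4.97 and 2.72, in CB-like cells. The 6 CC-like values lay above all CB-like values. *Herpud1* was at 2.44 ± 0.271 in CC-like and 1.71 ± 0.182 in CB-like cells (SD, n = 6), and *Pdia6* at 4.17 ± 1.29 and 2.47 ± 0.552, and in both the libraries of the 2 states did not overlap. *Ero1lb* was at 0.345 ± 0.0389 in CB-like, 0.234 ± 0.0727 in CC-like, 0.185 ± 0.0201 in recycling-like and 0.561 ± 0.118 in S-phase cells. *Mzb1* fell to 6.56 ± 1.09 in CC-like cells from 11.2 ± 0.994 in CB-like cells. It was at 0.661 ± 0.207 in T cell-like and 0.901 ± 0.613 in myeloid-like cells, cells that should lack it, so that these values give the background. *Pdia4* was at 0.734 to 2.81 in naive or memory B-like cells and at 0.0933 to 0.742 in CB-like cells.

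Plasmablast-like and plasma cell-like cells had sums that overlapped, and some members differed in their means. *Ssr4* was at 10.1 ± 6.18 UMIs per 10000 in PB-like and 30.4 ± 3.79 in PC-like cells, *Txndc5* at 9.32 ± 5.07 and 22.9 ± 6.13, and *Edem2* at 4.21 ± 1.88 and 11.6 ± 1.27 (SD, n = 6). *Ssr2* ran the other way, at 14.1 ± 1.49 and 4.04 ± 0.768, as did *Kdelr2*, at 3.94 ± 0.670 and 1.099 ± 0.377. The PB-like values of *Smc3* wt/- replicate 2 stood closer to the PC-like ones, with *Ssr4* at 22.4 against 5.69 to 10.0 in the other libraries, and its PB-like cells carried a median immunoglobulin share of 36.4% against 11.2% to 15.7% in the others.

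PB-like, PC-like and naive or memory B-like cells were also compared across steps, in libraries with at least 10 such cells in both. PB-like cells were at 4.96%, 4.52%, 5.41%, 5.28% and 5.79% for the 50 genes at 5 to 20%, in *Smc3* wt/wt replicates 2 and 3 and *Smc3* wt/- replicates 1, 2 and 3 in turn. At 20 to 50% the PB-like cells of these libraries were at 7.73%, 7.004%, 8.81%, 7.22% and 7.94%. The share was higher in 5 of 5 libraries and the steps did not overlap. Naive or memory B-like cells went from 0.660%, 0.849%, 0.694% and 0.739% under 5% to 0.721%, 1.52%, 1.14% and 0.599% at 5 to 20% in *Smc3* wt/wt replicate 2 and *Smc3* wt/- replicates 1, 2 and 3. They were thus higher in 3 of 4 libraries, lower in *Smc3* wt/- replicate 3, and below all PB-like values. Above 20% only *Smc3* wt/- replicate 2 had at least 10 cells of both states in both steps. Its 164 PB-like cells of 20 to 50% were at 7.22% and its 69 PB-like cells of 50% or more at 7.45%, while its 28 PC-like cells of 20 to 50% were at 4.66% and its 1422 PC-like cells of 50% or more at 4.35%. At the same step the sum was thus lower in PC-like than in PB-like cells of this library. With *Jchain* left out of the total the 4 values were 7.74%, 8.90%, 5.63% and 6.55%, in the same order between states. The latter comparison is of 1 library with no replicate, and no test was made of either.

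The study asked how *Smc3* dosage acts on the path from GC B cell to plasma cell, and the genotypes were compared in CB-like, CC-like and plasma-lineage (PB-like and PC-like) cells over 3 and 3 libraries. No ER gene was called between the genotypes in any class by edgeR's quasi-likelihood test, nor was any other gene. In CB-like cells 0% of 10220 genes were called (202 had an unadjusted p under 0.05, and DESeq2 called 0), in CC-like cells 0% of 7702 (135, and 0 by DESeq2) and in plasma-lineage cells 0% of 6052 (221, and 0 by DESeq2). The median log2 fold change of *Smc3* wt/- over *Smc3* wt/wt was 0.15 over the 50 ER genes and -0.01 over all genes in CB-like cells, 0.05 and 0.00 in CC-like cells, and 0.20 and 0.02 in plasma-lineage cells. Of the members, 36 of 50, 31 of 49 and 39 of 50 were positive. Without *Smc3* wt/- replicate 2 the medians were -0.01 with 25 of 50 positive in CB-like cells and 0.06 with 31 of 50 in plasma-lineage cells. That library had *Hsp90b1* at 6.35 UMIs per 10000 in CB-like cells against 1.53 to 1.61 in the other 5. It also gave 1724 of the plasma-lineage cells, against 35 to 84 in the others, and of another mix, with 1450 PC-like and 274 PB-like cells against 12 to 25 and 21 to 66. Genotype and the mix of these 2 states cannot be told apart in that library.

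The members with the lowest p were not called either. In CB-like cells *Sel1l* was at 0.439, 0.339 and 0.334 UMIs per 10000 in the *Smc3* wt/wt libraries and 0.253, 0.262 and 0.260 in *Smc3* wt/-, groups that did not overlap, with a log2 fold change of -0.49 (95% interval -0.81 to -0.16, unadjusted p = 0.00866, adjusted p = 1.0). *Atf4* was at 0.829, 0.900 and 0.912 against 0.654, 0.502 and 0.747 (-0.43, adjusted p = 1.0), and *Ddost* had a log2 fold change of 0.34 (95% interval -0.01 to 0.70). In CC-like cells these members were *Creld2* (0.54, 95% interval 0.10 to 0.98), *Ero1lb* (-0.66, -1.22 to -0.10) and *Sec11c* (0.66, -0.11 to 1.42). In plasma-lineage cells they were *Ddit3* (1.31, 0.11 to 2.50, adjusted p = 0.862), *Dnajb9* (0.66, -0.08 to 1.40) and *Sel1l* (1.14, -0.19 to 2.48), which was at -0.014 without *Smc3* wt/- replicate 2. The intervals allow changes of more than 1 log2 unit for several of these genes. A p above the threshold thus does not show that the genotypes were alike. On simulated counts with 200 genes changed by 1 log2 unit, the test called 100 in CB-like, 54 in CC-like and 1 in plasma-lineage cells. With a change of 2 log2 units it called 172, 184 and 131.

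Whether the genotype acted differently in plasma-lineage than in CB-like cells was tested as an interaction with the library as a block. Of 200 genes changed in simulated counts, this test called 0 at 1 log2 unit and 135 at 2 log2 units. In the libraries themselves the result was as follows. No ER gene passed, 0% of 8656 genes were called (346 had an unadjusted p under 0.05, and DESeq2 called 0), and the median over the members was 0.03. The lowest p were those of *Ddit3* (1.25, 95% interval 0.02 to 2.48, adjusted p = 0.892), *Sel1l* (1.09, 0.00 to 2.18) and *Dnajb9* (0.74, -0.05 to 1.53). Without *Smc3* wt/- replicate 2 the call of the members was also 0, and 3 of 8485 genes passed.

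**Figure D5:**
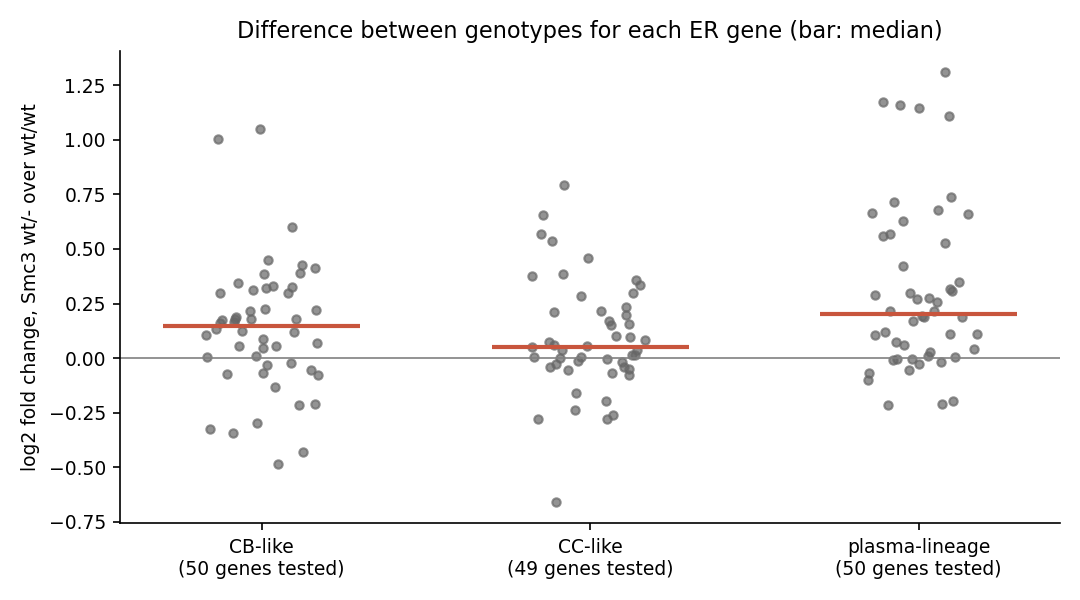
Each point is an ER gene, placed by its log2 fold change of *Smc3* wt/- over *Smc3* wt/wt in summed counts (y axis) in each class of cells (x axis); the bar is the median. The medians are 0.15, 0.05 and 0.20, and no point passed an adjusted p of 0.05.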

How the data were processed

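Single-cell RNA-seq was analysed in 6 libraries, grouped by the genotype in the labels. The authors deposited raw UMI counts per gene and cell barcode, made with Cell Ranger 3.0.2 on mm10 (the submitters' notes also name R 4.0.2 and Seurat 4.0.0). Further wild-type libraries that the study integrated were not analysed here. Cells needed 500 detected genes or more and no more than 10% of UMIs from mitochondrial genes. Doublets were scored with Scrublet (scanpy 1.11.5). The highest-scoring cells were removed, in a number fixed by an expected rate of 0.8% per 1000 cells. Cells were integrated and clustered in Seurat 5.3.0 without the members, immunoglobulin (392 genes), mitochondrial and ribosomal genes. A cluster was named from at least 3 markers among its 20 leading genes, a rule written after the clusters had been seen. Immunoglobulin genes were left out of all totals. Counts were summed per library and step or class (at least 10 cells) and tested with edgeR 4.0.16 (quasi-likelihood, TMM, low-count filter, Benjamini-Hochberg over all genes) in R 4.3.3, with DESeq2 1.42.0 as an alternative. Scripts were tested on simulated data.

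The members and lists were chosen with earlier results of these data known. Genes named per role were the 2 with the highest level at 50% or more and those with the largest and smallest change there, then *Atf4*, *Atf6*, *Ddit3*, *Mzb1*, *Sec11c*, *Ero1lb* and *Ssr2*, and the 3 with the lowest p of each genotype comparison. Other members (*Hspa5*, *Calr*, *Herpud1* and *Manf* among them) were named after their values had been seen. The 95% intervals of fold changes come from the edgeR fits and include the spread between libraries, while the limits given for counts of 0 cover counting error only. Replicate numbers were compared by the correlation of same-numbered libraries' deviations from their group means. It was 0.240, 0.143 and 0.141 in CB-like cells, 0.175, 0.0753 and 0.152 in CC-like cells and 0.189, 0.0558 and 0.142 in plasma-lineage cells. Alternatives were other scaling, no low-count filter, other step limits, plasma-lineage cells only, all retained cells, no library block, a replicate block and each library left out.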

Additional observations from a re-analysis of the deposited data

Results flagged for a closer look

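Of 14 groups of 6 libraries each, or 5 in the step of 20 to 50%, 4 had a summed level of the 50 ER genes in which the highest library stood apart by the gap to its neighbour over the range (critical value 0.625 for 6 libraries, the size of all 4), where chance flags about 1 in 20 groups. *Smc3* wt/- replicate 3 was high in cells of 50% or more immunoglobulin, at 7.004% (gap over range 0.684), and in PC-like cells, at 6.89% (0.735), which are largely the same cells. *Smc3* wt/- replicate 2 was high in CB-like cells, at 0.987% (0.712), and in the cells led by haemoglobin genes, at 1.26% (0.806). Of its 104 cells of the latter group, 19 were of 50% or more immunoglobulin. The cause was not tested.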

How the results depend on the processing

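With step limits of 2%, 10% and 40%, 31 ER genes were higher in the step above the lowest, and between the upper steps 14 were higher and 12 lower, with 2578 of 8363 genes called. *Canx* in the second step then turned to -0.075, and *Hspa5*, *Hsp90b1* and *Mzb1* between the upper steps to 0.32, 0.10 and 0.14. *Syvn1* at 5 to 20% ranged from -0.025 without *Smc3* wt/- replicate 2 to 0.22 without *Smc3* wt/wt replicate 1. *Ddit3* at 5 to 20%, which was not called, turned to -0.10 with RLE scaling, -0.14 with DESeq2, -0.050 without the low-count filter, -0.026 with all retained cells, -0.42 in plasma-lineage cells only, -0.10 without *Smc3* wt/wt replicate 1 and -0.17 without *Smc3* wt/- replicate 3, and was at 0.22 without *Smc3* wt/wt replicate 2. *Sel1l* by genotype in plasma-lineage cells ranged from -0.014 without *Smc3* wt/- replicate 2 to 1.53 without *Smc3* wt/- replicate 1. Without the low-count filter the genotype comparison called 8 genes in CC-like and 47 in plasma-lineage cells, and the interaction 12. The mean over cells of the summed level was 0.778% under 5% and 3.64% at 5 to 20%, and with *Jchain* out of the total the level at 50% or more was 6.91%. Members with a UMI were 3.17, 11.3, 18 and 14.8 over the steps when thinned to 500 UMIs and 18.3, 38.3, 41.9 and 36.1 without thinning. The cause was not tested.

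With each library left out in turn, 47 to 48, 47 to 49 and 47 to 50 ER genes were higher in the 3 steps, and 4 to 6 were higher and 17 to 21 lower between the upper steps. Over all genes the calls were 2422 to 2828, 2384 to 2913, 2428 to 3674 and 687 to 923, the 2428 being without *Smc3* wt/- replicate 2, and 0 to 3 in the interaction. The summed level was 0.803% to 0.824%, 4.47% to 4.85%, 7.23% to 7.72% and 4.50% to 5.06%, and the members with a UMI 6.0 to 6.20, 17 to 19.2, 25.25 to 25.9 and 20.6 to 21.7. With the replicate block, 0 ER genes and 0 of all genes were called by genotype in each class, with member medians of 0.15, 0.07 and 0.20, so the pairing changed no call. Depth limits the genes at few UMIs, such as *Ddit3* and *Srp54a*.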
